A study of Mus musculus with 10 samples.

Results

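The intermediate filament genes of Neuro-2a cells were examined after depletion of Sfpq. The set held 10 genes chosen by name, of 23553 in the files: the neurofilament subunits Nefl, Nefm and Nefh, the neuronal filament proteins Ina and Prph, Vim and Nes, which also mark non-neuronal and precursor cells, and the nuclear lamins Lmna, Lmnb1 and Lmnb2. Where a gene had several RefSeq rows, the row with the highest mean stood for it. The rows were NM_010910 (Nefl, chromosome 14), NM_008691 (Nefm, chromosome 14), NM_010904 (Nefh, chromosome 11), NM_146100 (Ina, chromosome 19), NM_001163589 (Prph, chromosome 15), NM_011701 (Vim, chromosome 2), NM_016701 (Nes, chromosome 3), NM_019390 (Lmna, chromosome 3), NM_010721 (Lmnb1, chromosome 18) and NM_010722 (Lmnb2, chromosome 10). Neuro-2a is a mouse neuroblastoma cell line, for which the labels give the strain as C57BL/6+C57BL/6J+CBA. Cells in medium with 2% serum, which the labels call a differentiated condition, received either a small interfering RNA (siRNA) against mouse Sfpq, an RNA-binding protein of the nucleus, or an siRNA against luciferase (Luc), which mouse cells lack. Both were transfected with RNAiMAX. Poly(A) RNA was sequenced from 3 Sfpq and 3 Luc libraries, and RNA depleted of ribosomal RNA (rRNA) from 1 Sfpq and 1 Luc library. Pol II chromatin immunoprecipitation, also listed, is not analysed here. All groups are 1 cell line, and nothing in the labels ties the replicates to separate cultures, so the spread between libraries may be technical. Replicate numbers follow the sample titles. The description of Sfpq replicate 2 calls it replicate 1.

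Intermediate filaments are rope-like polymers of the cytoplasm, and in the nucleus their relatives, the lamins, line the inner face of the envelope. Neurofilaments are built from light, medium and heavy chains together with alpha-internexin (Ina) or peripherin (Prph), and they set the calibre of axons. Peripherin is typical of peripheral neurons and of neuroblastoma, which comes from the sympathetic lineage. Vimentin and nestin mark precursor cells, and nestin forms filaments with a partner such as vimentin. B-type lamins stay attached to the membrane through a lipid tail, whereas Lmna gives lamins A and C by alternative splicing.

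Levels are in RPKM, the reads of a transcript divided by its length and by the size of its library, which lets genes be set beside each other. Sfpq RNA stood at 3.98, 4.75 and 6.47 RPKM in the Sfpq libraries, against 56.8, 60.8 and 73.0 RPKM in the Luc libraries of poly(A) RNA. In rRNA-depleted RNA it stood at 4.43 RPKM in the Sfpq and 30.8 RPKM in the Luc library. The row with the highest mean, used here, is a noncoding record of Sfpq, and with the mean of all its rows the log2 fold change was -3.47 (limma adjusted p = 1.62e-06). The lineage matched the label, since 13 of 14 neuroblastoma markers reached a mean of 0.5 RPKM. The files give no read totals, but the spacing of the lowest values ranked Sfpq replicate 1 shallowest (0.628 times Luc replicate 1) and Luc replicate 3 deepest (1.28 times). Luc replicate 3 stood apart, with correlations across genes of 0.985 and 0.979 to Luc replicates 1 and 2, against 0.996 between those.

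The promoter windows of the 4 members on which the account turns most are printed first, from RefSeq on GRCm38.p6, each from 250 bases before to 50 bases after an annotated start and read 5′ to 3′. They show how the starts of the pair of most abundant genes (Prph and Vim) compare with those of the member that rose (Nes) and of a lamin that fell (Lmna, the more upstream of its 2 windows). Capitals mark TATAAA, the TATA box, in Prph and Vim, and CCGCCC, the GC box GGGCGG on the other strand, in Nes and Lmna. The windows lie at chr15:99054924-99055223 (+ strand, Prph), chr2:13574061-13574360 (+ strand, Vim), chr3:87970843-87971142 (+ strand, Nes) and chr3:88503303-88503602 (- strand, Lmna).
Prph: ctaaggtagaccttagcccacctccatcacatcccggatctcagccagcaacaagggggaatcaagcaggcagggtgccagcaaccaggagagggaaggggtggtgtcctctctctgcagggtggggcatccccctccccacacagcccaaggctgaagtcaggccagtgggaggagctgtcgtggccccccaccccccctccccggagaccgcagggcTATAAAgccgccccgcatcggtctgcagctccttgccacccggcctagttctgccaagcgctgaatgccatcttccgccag
Vim: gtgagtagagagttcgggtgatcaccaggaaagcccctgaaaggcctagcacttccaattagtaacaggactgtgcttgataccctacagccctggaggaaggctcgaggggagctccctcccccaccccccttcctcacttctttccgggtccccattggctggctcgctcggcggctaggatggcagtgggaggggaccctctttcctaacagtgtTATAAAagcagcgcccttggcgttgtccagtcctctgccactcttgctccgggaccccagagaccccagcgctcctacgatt
Nes: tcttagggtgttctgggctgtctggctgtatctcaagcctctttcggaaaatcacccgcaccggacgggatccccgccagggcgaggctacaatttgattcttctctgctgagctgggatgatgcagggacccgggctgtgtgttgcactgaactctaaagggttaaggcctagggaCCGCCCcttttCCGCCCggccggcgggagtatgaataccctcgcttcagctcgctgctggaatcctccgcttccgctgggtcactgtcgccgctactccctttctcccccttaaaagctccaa
Lmna: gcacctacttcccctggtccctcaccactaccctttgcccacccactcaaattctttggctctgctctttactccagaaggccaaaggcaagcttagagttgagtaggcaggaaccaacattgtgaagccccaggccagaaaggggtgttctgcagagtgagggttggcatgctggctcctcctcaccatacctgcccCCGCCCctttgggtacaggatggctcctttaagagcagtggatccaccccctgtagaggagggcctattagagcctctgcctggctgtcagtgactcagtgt

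The motifs of the TATA box (TATAAA), the CCAAT box (the letters CCAAT) and the GC box (GGGCGG) were searched on both strands in the 8 windows used for 6 members, Lmna and Lmnb2 having 2 windows each. TATAAA was found in Prph, 31 bases before the start, and in Vim, 32 bases before it, and in no other of these windows. Of the 32851 promoter windows in the table, 13.6% hold TATAAA. The GC box was found in at least 1 window of 5 members, in Nes at 73 and 62 bases before the start and in Lmna at 52, and 35.7% of all windows hold it. That share is per window, while the 5 is a count of members, so they are not alike. CCAAT was found in Vim and in the other Lmna window, against 37.4% of all windows. In Prph a GGGCGG match on the other strand, left in lower case, begins 24 bases before the start and does not overlap the TATA box. A match describes letters in the window only. No window was used for Nefl, Nefm, Nefh or Lmnb1, so the member counts do not cover them. Windows on chromosome 18, which holds Lmnb1, were left out of the search in members.

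Across the family, Nes rose, Prph, Nefh and Lmna fell, and the other members did not pass the test. Of the 10 members, 8 reached the minimum mean of 0.5 RPKM and were tested with limma, a linear model fitted to log2(RPKM + 0.5) of all 11727 genes. At a Benjamini-Hochberg adjusted p under 0.05, 4 of these 8 were called, 1 higher and 3 lower in Sfpq libraries. In the same comparison 40.0% of all tested genes were called, 21.3% higher and 18.6% lower, so the share of members called was near the background. The median log2 fold change was -0.08 over the 8 members and 0.05 over all genes tested. The Sfpq libraries lay wholly above the Luc libraries for 2 members and wholly below them for 3, against 28.2% and 24.7% of all genes, 52.9% together. Since these are bulk samples, a change in the number of expressing cells and a change in RNA per cell cannot be told apart.

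**Figure D1:**
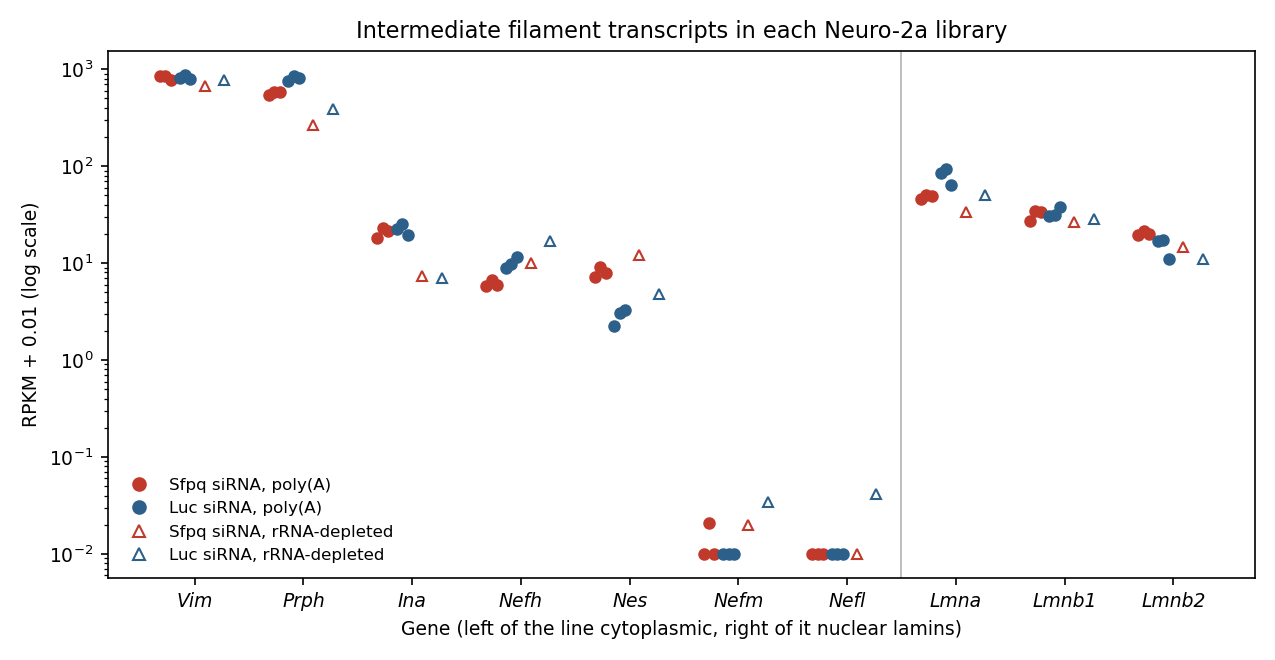
RPKM plus 0.01 on a log axis for each member (italic labels) in every library. Circles are poly(A) and triangles rRNA-depleted libraries, red for Sfpq and blue for Luc siRNA, and each point is 1 library. Vim and Prph stand highest, and Nefm and Nefl lie at or near the floor of the plot. Red circles lie above blue ones for Nes and Lmnb2, of which Lmnb2 did not pass the test. They lie below blue ones for Prph, Nefh and Lmna.

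The light and medium neurofilament chains were all but missing. Nefl, which nucleates the neurofilament, was listed at 0 RPKM in all 6 poly(A) libraries. In rRNA-depleted RNA Nefl was listed at 0 in the Sfpq library and at 0.0313 RPKM in the Luc library. Nefm, the medium chain, was listed at 0.011 RPKM in Sfpq replicate 2 and at 0 in the other 5 poly(A) libraries. It had 0.00965 RPKM in the Sfpq and 0.0243 RPKM in the Luc library of rRNA-depleted RNA. Each gene has 1 row in the files, and 13 genes that every cell uses had at least 5.75 RPKM in every library. No fold is given for either gene.

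Nefh, the heavy chain with the long phosphorylated tail, was the neurofilament subunit with a measurable level, and it fell. Its values were 5.73, 6.62 and 5.90 RPKM in Sfpq libraries, against 8.92, 9.83 and 11.5 RPKM in Luc libraries. The groups did not overlap. The mean was 60.3% of the Luc mean (6.08 ± 0.470 RPKM in Sfpq and 10.1 ± 1.31 RPKM in Luc libraries, SD, n = 3 each). The log2 fold change was -0.68 (SE 0.12, limma adjusted p = 0.00232). The rRNA-depleted pair gave Nefh 9.91 RPKM in the Sfpq and 17.1 RPKM in the Luc library, a log2 ratio of -0.75. Nefh was higher in rRNA-depleted than in poly(A) RNA under both siRNAs, the mean poly(A) value being 0.614 times the rRNA-depleted one in Sfpq and 0.591 times in Luc cells. Nes had similar ratios, 0.655 in Sfpq and 0.584 in Luc cells. RPKM is scaled within each library, so ratios between preparations compare relative levels only.

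Prph, the peripherin gene, was among the most abundant transcripts of these cells and fell. It had 545, 577 and 578 RPKM in Sfpq libraries, against 751, 860.4 and 822 RPKM in Luc libraries. Every Sfpq library lay below every Luc library. Its mean was 69.9% of the Luc mean, and the log2 fold change was -0.52 (SE 0.10, limma adjusted p = 0.00305). By mean poly(A) level it ranked 103 among all genes. The 3 RefSeq rows of Prph had Sfpq-to-Luc folds of 0.699, 0.695 and 0.696 in poly(A) RNA. In rRNA-depleted RNA Prph had 268 RPKM in the Sfpq and 385 RPKM in the Luc library, a fold of 0.696. The summed level of the 14 neuroblastoma markers, from the same lineage as peripherin, lay between 541 and 551 RPKM in Sfpq libraries. In Luc libraries it lay between 649.6 and 719 RPKM. Of the 13 markers tested, 3 rose and 7 fell (23.1% and 53.8%, against 21.3% and 18.6% of all genes). Their part in the fall of Prph was not tested.

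Ina, alpha-internexin, stayed within the spread of the libraries. It had 18.0, 23.2 and 21.4 RPKM in Sfpq libraries, against 22.3, 25.4 and 19.4 RPKM in Luc libraries. The groups overlapped. Its log2 fold change was -0.10 with a 95% interval of -0.40 to 0.21 (limma adjusted p = 0.601), so a change of up to 1.15-fold upwards or to 0.759 of the Luc level lies within that interval. In rRNA-depleted RNA Ina had 7.32 RPKM in the Sfpq and 6.94 RPKM in the Luc library. Its poly(A) level was 2.85 times its rRNA-depleted level in Sfpq and 3.22 times in Luc cells, the highest such ratio among the members above the minimum.

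Vim, vimentin, was the most abundant member and did not change detectably in poly(A) RNA. It had 861, 852 and 784 RPKM in Sfpq libraries, against 814, 878 and 789 RPKM in Luc libraries. The groups overlapped throughout. The log2 fold change was 0.01 with a 95% interval of -0.21 to 0.23 (limma adjusted p = 0.9498). In rRNA-depleted RNA Vim had 665 RPKM in the Sfpq and 777 RPKM in the Luc library, a log2 ratio of -0.22 without a replicate.

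Nes, nestin, rose in every Sfpq library. It had 7.13, 9.07 and 7.85 RPKM in Sfpq libraries, against 2.21, 3.02 and 3.26 RPKM in Luc libraries. The lowest Sfpq library was above the highest Luc library. Its mean was 2.83 times the Luc mean (8.01 ± 0.981 RPKM in Sfpq and 2.83 ± 0.548 RPKM in Luc libraries, SD, n = 3 each), with a log2 fold change of 1.36 (SE 0.15, limma adjusted p = 0.000144). Ordered by log2 fold change it was at place 66 from the top of 11727 genes. In rRNA-depleted RNA Nes had 12.2 RPKM in the Sfpq and 4.84 RPKM in the Luc library, a fold of 2.53. It was the 1 member past 2-fold there, where 6.83% of 11386 genes were, 1.65% higher and 5.18% lower in the Sfpq library.

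Because vimentin and nestin also mark glial, fibroblast and other mesenchymal cells, markers of those cells were read beside them. The summed level of 8 glial and Schwann cell markers lay between 2.96 and 3.70 RPKM in Sfpq and between 2.40 and 2.86 RPKM in Luc libraries. Of that list Fabp7, S100b and Sox10 were listed at 0 in all poly(A) libraries. Of its 3 tested genes 1 rose (against 21.3% of all genes), the receptor gene Erbb3 (log2 fold change 0.60, limma adjusted p = 0.00984). The sum of 8 fibroblast markers lay between 3.76 and 4.45 RPKM in Sfpq and between 4.74 and 4.98 RPKM in Luc libraries. That direction rested on Acta2, since the other 7 summed to between 2.75 and 3.32 RPKM in Sfpq and between 1.84 and 1.87 RPKM in Luc libraries (a sum added after the values were seen). Col3a1 and Lum were at or near 0 in poly(A) libraries, while Pdgfrb rose (0.84, limma adjusted p = 0.000728) and Acta2 fell (-1.23, limma adjusted p = 8.86e-05). The higher sum of those 7 in turn rested largely on Pdgfrb, with means of 1.96 RPKM in Sfpq and 0.877 RPKM in Luc libraries. The rest did not move together. Pdgfra averaged 0.640 RPKM in Sfpq and 0.385 RPKM in Luc libraries, and Dcn 0.279 RPKM in Sfpq and 0.523 RPKM in Luc libraries. The sum of 6 epithelial markers lay between 0.528 and 1.33 RPKM in Sfpq and between 0.350 and 0.608 RPKM in Luc libraries, with Krt5 listed at 0. The part of these markers in the rise of Nes was not tested.

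**Figure D2:**
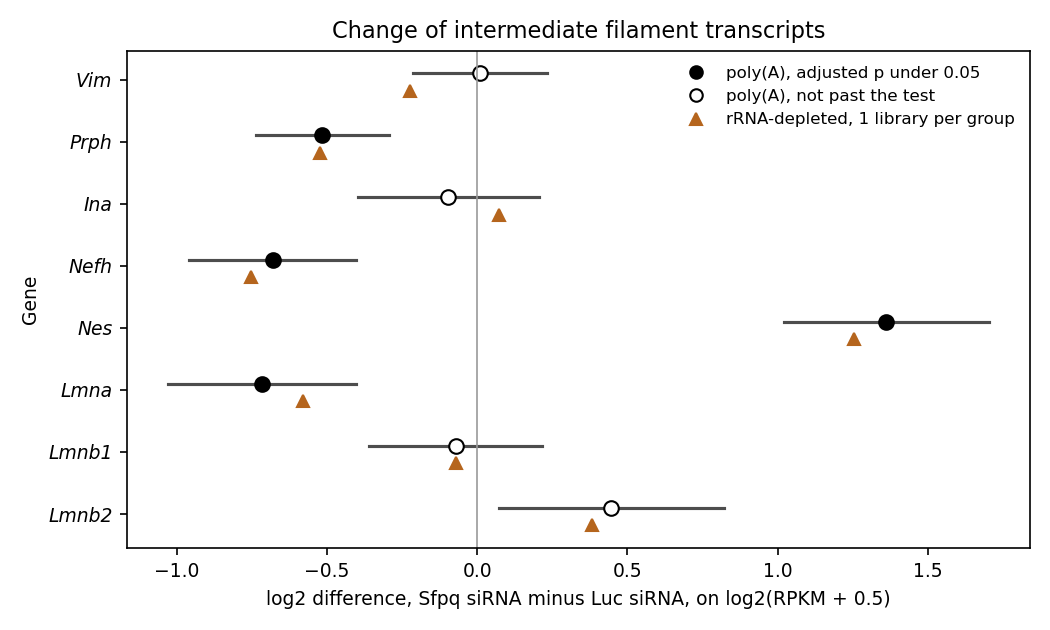
Log2 difference, Sfpq minus Luc siRNA, on the log2(RPKM + 0.5) scale for the 8 tested members. Circles with 95% intervals are the limma estimates in poly(A) RNA, filled where the adjusted p is under 0.05, and triangles are the ratios of the rRNA-depleted libraries, 1 per group. Nes lies to the right at 1.36, Lmna, Nefh and Prph lie to the left between -0.72 and -0.52, and the triangles of these 4 genes lie on the same side as their circles.

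The cytoplasmic filament pool was made almost wholly of vimentin and peripherin. These genes together held 97.6% ± 0.260 of the summed RPKM of the 7 cytoplasmic members in Sfpq and 97.9% ± 0.0411 in Luc libraries (SD, n = 3 each). The share of Prph was 39.5% ± 1.76 in Sfpq and 48.5% ± 1.49 in Luc libraries, and that of Vim 58.0% ± 1.93 in Sfpq and 49.4% ± 1.49 in Luc libraries (SD, n = 3 each). Neither share overlapped between the groups. As Vim and Prph made up nearly all of the sum, these shares mirror each other and are not separate results. Vim itself did not change detectably in RPKM. Nes made up 0.558% ± 0.0609 in Sfpq and 0.169% ± 0.0298 in Luc libraries (SD, n = 3 each). The summed level was 1434 ± 35.6 RPKM in Sfpq and 1673 ± 92.7 RPKM in Luc libraries (SD, n = 3 each).

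Ratios of members within a library do not depend on how libraries are scaled. Vim over Nes was 121, 94.0 and 99.8 in Sfpq libraries, against 368, 291 and 242 in Luc libraries. The groups were well apart, with a log2 difference of -1.50. Ina over Prph was 0.0331, 0.0402 and 0.0371 in Sfpq libraries, against 0.0296, 0.0295 and 0.0236 in Luc libraries, a log2 difference of 0.42 without overlap. Nefh over Prph was 0.0105, 0.0115 and 0.0102 in Sfpq libraries, against 0.0119, 0.0114 and 0.0140 in Luc libraries, and here the groups overlapped (log2 difference -0.21). In two-sided exact permutation tests p was 0.1 for the first pair of ratios, the lowest value this design of 3 against 3 can reach, and 0.2 for Nefh over Prph. Adjusted over the 5 ratios tested these became 0.167, 0.167 and 0.2 (exact permutation tests). Ratios over Nefl were planned but could not be formed, since Nefl was listed at 0, and Prph took its place as the denominator after the values were seen.

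Lmna, the gene of the A-type lamins, fell. It had 46.0, 49.9 and 49.3 RPKM in Sfpq libraries, against 85.5, 92.7 and 63.9 RPKM in Luc libraries. Every Sfpq library lay below every Luc library, and Luc replicate 3 was the lowest of its group. The mean was 59.9% of the Luc mean, with a log2 fold change of -0.72 (SE 0.14, limma adjusted p = 0.00332). Without Luc replicate 3 the log2 fold change was -0.87. The 3 RefSeq rows had Sfpq-to-Luc folds of 0.599, 0.611 and 0.655 in poly(A) RNA and 0.666, 0.630 and 0.6496 in rRNA-depleted RNA, so no row stood apart. In rRNA-depleted RNA the row with the highest mean had 33.6 RPKM in the Sfpq and 50.5 RPKM in the Luc library. The rows share most of their sequence, and how the authors assigned shared reads is not given in the sources used here.

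The B-type lamins did not pass the test. Lmnb1 had 27.2, 34.4 and 33.8 RPKM in Sfpq libraries, against 30.95, 31.4 and 37.9 RPKM in Luc libraries. Those groups overlapped, and the log2 fold change was -0.07 with a 95% interval of -0.36 to 0.22 (limma adjusted p = 0.685). Lmnb2 had 19.6, 21.4 and 20.1 RPKM in Sfpq libraries, against 17.1, 17.3 and 10.96 RPKM in Luc libraries. All 3 Sfpq values of Lmnb2 were above all 3 Luc values, yet the log2 fold change of 0.45 (95% interval 0.07 to 0.82) had a limma adjusted p of 0.0576. Luc replicate 3 stood low here as well, and without it the log2 fold change was 0.24 and passed (limma adjusted p = 0.0305). In rRNA-depleted RNA Lmnb1 had 26.8 RPKM in the Sfpq and 28.2 RPKM in the Luc library, and Lmnb2 had 14.6 RPKM in the Sfpq and 11.1 RPKM in the Luc library.

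As a share of lamin transcripts, Lmna was lower and Lmnb2 higher in every Sfpq library than in any Luc library. Lmna held 48.2% ± 1.22 of the summed lamin RPKM in Sfpq and 62.1% ± 4.75 in Luc libraries (SD, n = 3 each). Lmnb2 held 20.3% ± 0.817 in Sfpq and 11.6% ± 1.63 in Luc libraries (SD, n = 3 each). Both are parts of the same sum, so the higher share of Lmnb2 includes the fall of Lmna and is not a separate result. In RPKM Lmnb2 did not pass the test. In the rRNA-depleted pair the share of Lmna was 44.8% in the Sfpq and 56.2% in the Luc library. Lmna over Lmnb1 was 1.69, 1.45 and 1.46 in Sfpq libraries, against 2.76, 2.95 and 1.69 in Luc libraries, so that Luc replicate 3 met the highest Sfpq library. The log2 difference of that ratio was -0.65 (two-sided exact permutation p = 0.2, adjusted 0.2 over the 5 ratios) and -0.90 without Luc replicate 3. Lmnb2 over Lmnb1 was 0.7198, 0.622 and 0.595 in Sfpq libraries, against 0.551, 0.5501 and 0.2895 in Luc libraries. Its log2 difference was 0.53 (two-sided exact permutation p = 0.1, adjusted 0.167), and 0.22 without Luc replicate 3.

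**Figure D3:**
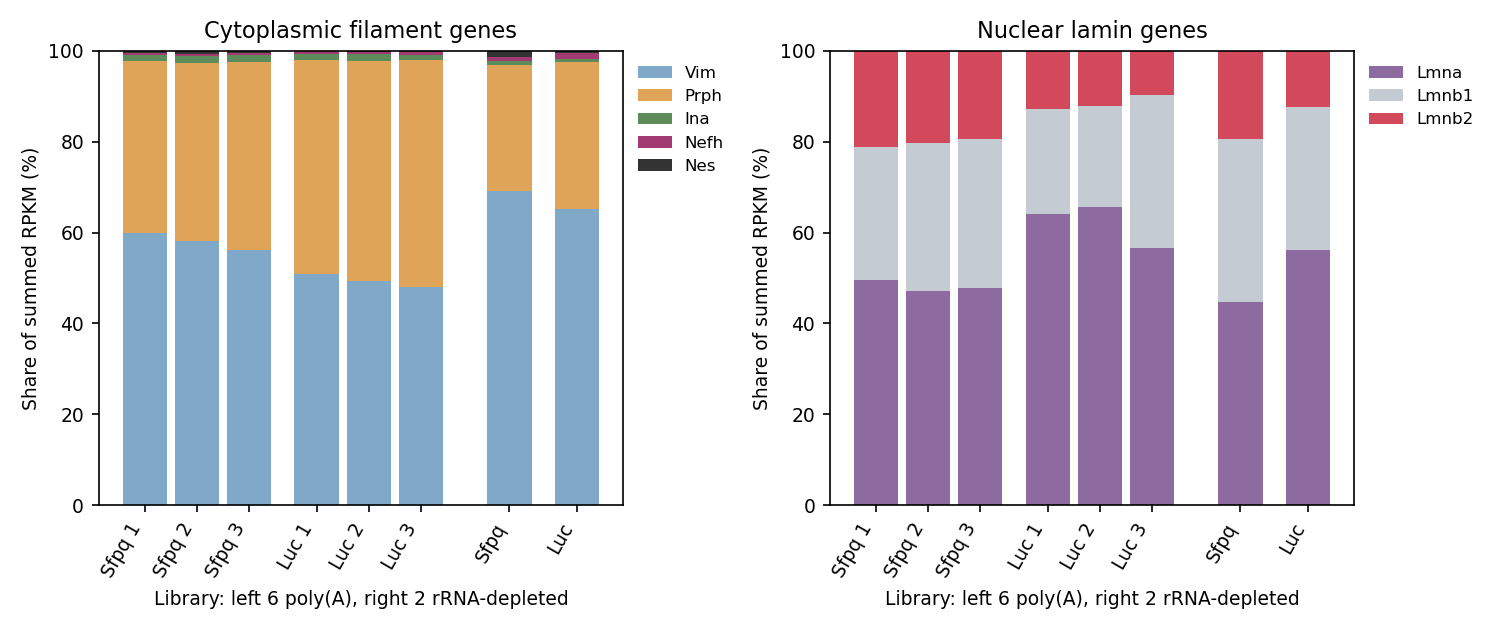
Share of summed RPKM in percent, for cytoplasmic filament genes on the left and lamin genes on the right, in each of 8 libraries (Sfpq libraries left of Luc libraries in each preparation). Each bar is 1 library, and Nefl and Nefm are too low to be drawn. Peripherin takes 39.5% of the cytoplasmic bar on average in Sfpq and 48.5% in Luc poly(A) libraries, and Lmna takes 48.2% of the lamin bar in Sfpq and 62.1% in Luc poly(A) libraries.

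Ordered by mean RPKM in Sfpq poly(A) libraries, the members ran Vim (832 ± 42.6), Prph (567 ± 19.0), Lmna (48.4 ± 2.10), Lmnb1 (31.8 ± 3.98), Ina (20.9 ± 2.64), Lmnb2 (20.4 ± 0.935), Nes (8.01 ± 0.981) and Nefh (6.08 ± 0.470), with SD over n = 3. In Luc libraries the order was Vim (827 ± 46.2), Prph (811 ± 55.5), Lmna (80.7 ± 15.0), Lmnb1 (33.4 ± 3.87), Ina (22.4 ± 3.00), Lmnb2 (15.1 ± 3.59), Nefh (10.1 ± 1.31) and Nes (2.83 ± 0.548). Vim and Prph lay within their spread of each other in Luc but not in Sfpq libraries, and Ina and Lmnb2 within it in Sfpq libraries. Nes and Nefh changed places between the groups.

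Genes with the most similar profiles over the 6 poly(A) libraries were named by the smallest root mean square difference of centred log2 values among 7813 genes averaging 5 RPKM or more. For Nefh these were Parvb, of focal adhesions (0.0509 log2 units), Ccdc174 (0.0553) and Dusp12, a phosphatase gene (0.0578). For Prph they were Ndufa8, of respiratory complex I (0.0402), Arl8a, a small GTPase of lysosomes (0.0434), and Chrm4, a muscarinic receptor (0.0437). For Vim they were Trappc10 (0.0255), Txndc11 (0.0258) and Ncstn, a gamma-secretase subunit (0.0325). The centred profile of Vim was itself nearly flat, with a root mean square of 0.0634 log2 units, against 0.360 for Nefh and 0.266 for Prph. The smaller differences for Vim therefore do not mean a closer likeness. The 6 libraries fall into 2 groups, and a like profile for Nefh or Prph includes the difference between the groups.

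Other genes of the intermediate filament family, listed together with the filament-binding Tchp, were mostly too low to test. Of 34 in that list, 15 were listed at 0 in all poly(A) libraries and 29 were under the minimum. Of the 5 tested, 3 rose, 0 fell and 2 did not pass limma (against 21.3% of all genes called higher). The risers were Iffo1, an orphan family member (6.49 ± 0.174 RPKM in Sfpq and 4.28 ± 0.457 RPKM in Luc libraries, SD, n = 3 each, log2 fold change 0.55), Synm, whose product synemin joins vimentin and desmin filaments (0.51), and Tchp, a keratin-filament binding protein (0.43). The limma adjusted p of Iffo1, Synm and Tchp were 0.00452, 0.0276 and 0.0331. Synm had 1.78, 2.51 and 2.49 RPKM in Sfpq libraries, against 1.21, 1.39 and 1.71 RPKM in Luc libraries. Krt8 had 1.24, 0.510 and 0.467 RPKM in Sfpq libraries, against 0.297, 0.342 and 0.538 RPKM in Luc libraries, overlapped and did not pass (limma adjusted p = 0.160), and its usual partner Krt18 was at or near 0 (both chosen after their values were seen). With the low-value filter off, or on leaving out any 1 of replicates 1 and 2 of Luc or 2 and 3 of Sfpq, the list had 1 gene called higher in limma.

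Cytolinkers and factors for filament transport, phosphorylation and turnover moved both ways. Of 34 tested, 4 rose and 7 fell (11.8% and 20.6%, against 21.3% and 18.6% of all genes), with a median log2 fold change of -0.07. The kinesin heavy chains did not move together. Kif5a, a neuronal chain and a motor for neurofilaments, had 12.7 ± 0.906 RPKM in Sfpq and 8.504 ± 0.428 RPKM in Luc libraries and rose, while the widespread Kif5b had 9.06 ± 0.946 RPKM in Sfpq and 26.6 ± 5.54 RPKM in Luc libraries and fell (SD, n = 3 each). Their log2 fold changes were 0.55 and -1.49 (limma adjusted p = 0.00308 and 8.65e-05). Kif5c, the other neuronal chain, had 20.6 ± 0.451 RPKM in Sfpq and 23.3 ± 3.18 RPKM in Luc libraries and did not pass (SD, n = 3 each, log2 fold change -0.16, limma adjusted p = 0.2800). The calpains, proteases that cut neurofilaments, differed too, with Capn1 higher by 0.60 and Capn2 lower (-1.31), both past the limma test (adjusted p = 0.00273 and 3.09e-05).

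The kinase gene Mapk3 (0.61) and Tardbp (0.84), whose product TDP-43 binds neurofilament mRNA, also rose (limma adjusted p = 0.00133 and 0.00169). The row standing for Tardbp is a noncoding record, and with the mean of all its rows the log2 fold change was 0.59. Arhgef28, an RNA-binding exchange factor known from mouse to bind the Nefl message, fell (-0.66), as did Casp6, a protease that cuts lamin A (-0.44, limma adjusted p = 0.000818 and 0.0119). The Casp6 call ended without Luc replicate 1 or Sfpq replicate 2. The number lower in this list was 3 without Luc replicate 1 and 4 without Sfpq replicate 1, 2 or 3, fits in which 14.3% to 14.9% of all genes were lower.

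Partners and processing enzymes of the lamina included Syne2 among those that rose and Banf1 as the one that fell. Of 28 tested, 7 rose and 1 fell (25.0% and 3.57%, against 21.3% and 18.6% of all genes), and the median log2 fold change was 0.23 against 0.05 over all genes. Syne2, whose nesprin-2 ties the nucleus to the cytoskeleton, had 8.82, 10.3 and 10.9 RPKM in Sfpq libraries, against 5.05, 5.02 and 4.76 RPKM in Luc libraries (0.94, limma adjusted p = 0.000237). Without poly(A) selection Syne2 had 14.8 RPKM in the Sfpq and 5.59 RPKM in the Luc library. Narf, which binds prelamin A (0.67), Ctdnep1, a phosphatase of the nuclear envelope (0.53), and Syne3, for nesprin-3 (0.48), rose too, with limma adjusted p of 0.00199, 0.00359 and 0.0271.

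Banf1, for the barrier-to-autointegration factor that bridges DNA, lamin A and envelope proteins, was the gene of this list that fell. It had 49.1, 43.0 and 40.4 RPKM in Sfpq libraries, against 90.8, 99.1 and 109.0 RPKM in Luc libraries, with no overlap (log2 fold change -1.17, SE 0.11, limma adjusted p = 6.8e-05). Without poly(A) selection Banf1 had 44.5 RPKM in the Sfpq and 120.0 RPKM in the Luc library. Zmpste24, the protease that matures prelamin A, had 7.32 ± 0.318 RPKM in Sfpq and 8.90 ± 1.83 RPKM in Luc libraries and did not pass (SD, n = 3 each, limma adjusted p = 0.193). The count of lamina genes called higher was 4 on leaving out Luc replicate 1 or either of Sfpq replicates 2 and 3, and 13 without Luc replicate 3, where 2 were lower. The share of all genes called higher moved the same way, at 13.2% to 15.0% in the first 3 fits and 30.9% in the last. The Syne3 call ended on leaving out any of the same 3 libraries that gave 4, or with the low-value filter off.

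**Figure D4:**
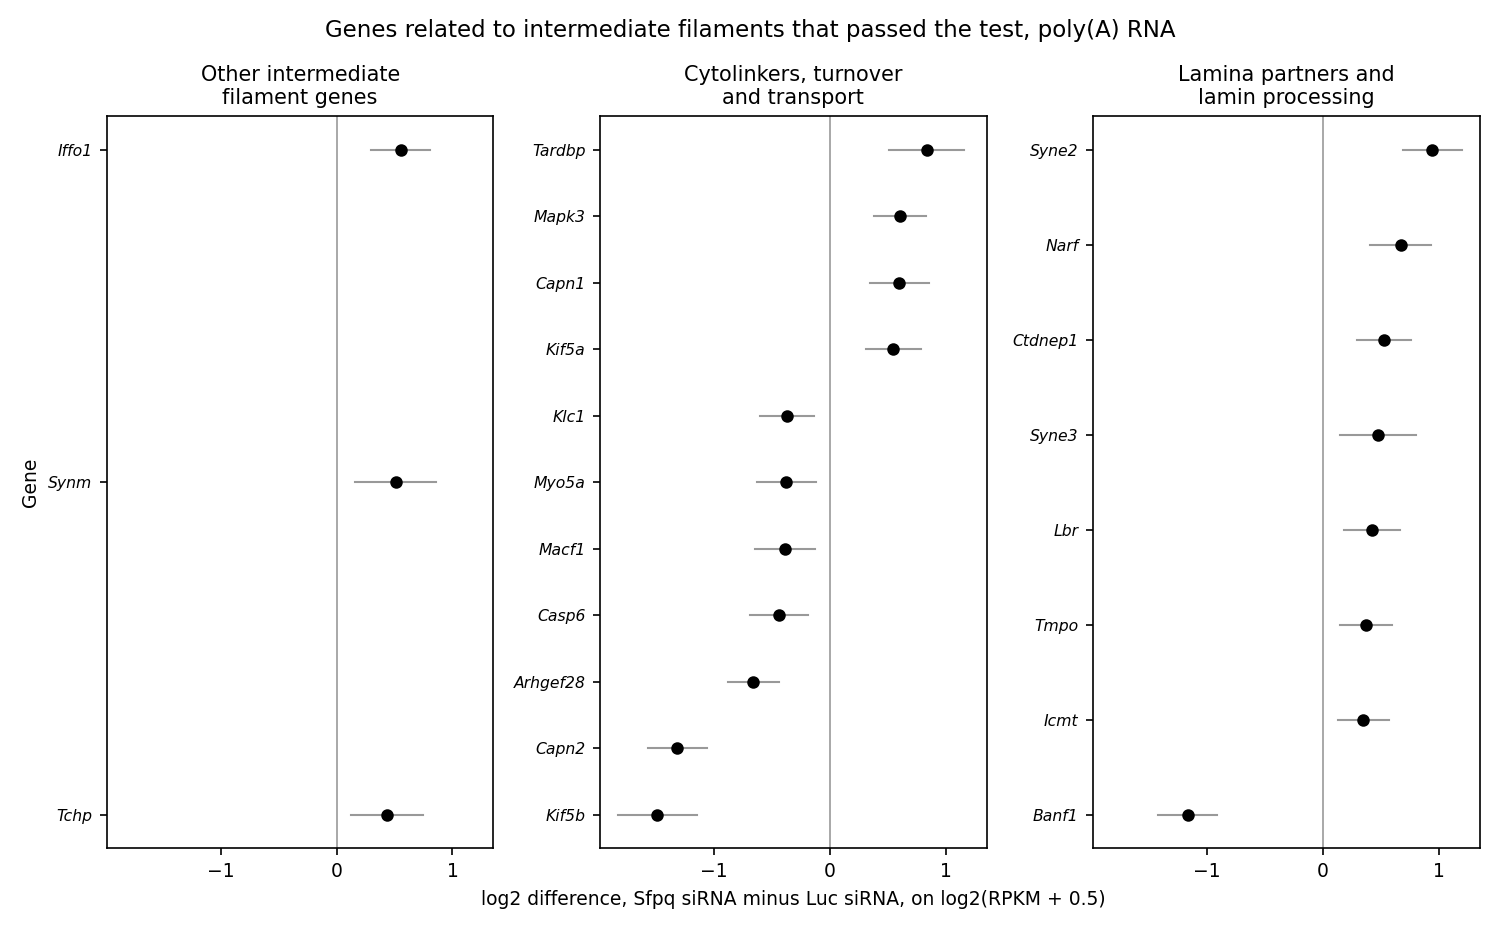
Log2 difference, Sfpq minus Luc siRNA, on the log2(RPKM + 0.5) scale with 95% limma intervals in poly(A) RNA, for the genes of 3 lists with an adjusted p under 0.05: other intermediate filament genes (3 higher), cytolinkers with turnover and transport factors (4 higher, 7 lower), and lamina partners with lamin processing enzymes (7 higher, 1 lower). Each circle is 1 gene. Kif5b and Capn2 lie lowest in the middle panel and Banf1 lies alone on the left of the right panel.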

How the data were processed

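The authors deposited 1 table of RPKM values per library, with RefSeq rows, and per the submitters' processing notes used TopHat2 2.0.10 and the mouse build mm9. Which program made the RPKM, how it assigned reads and whether it used strand is not given in the sources used here, and depth is unknown, so no counting interval is given. Of 30978 rows 98.5% were matched to a gene symbol. The other 475 were kept under their row names, each counted as a gene among the 23553. For each gene the row with the highest mean was kept.

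In the 6 poly(A) libraries log2(RPKM + 0.5) was fitted with limma 3.58.1 (trended prior, R 4.3.3) over the 11727 genes averaging 0.5 RPKM or more, with Benjamini-Hochberg adjustment. Fold changes are on that scale, which understates changes of low genes. The rRNA-depleted libraries, 1 per group, gave ratios with no test. Ratios between members were compared by exact permutation. The limma fit was tested on simulated data in which few genes changed. That setting is unlike these data, so it does not bear on calls as widespread as those here.

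Members and gene lists were chosen with earlier results of these data known. Named genes were the members, up to 4 called genes per direction and list with the largest changes, and the 3 nearest profiles. Ina, Nes and the lamins were not given a nearest profile, and Nefl and Nefm had none. Krt8, Krt18, Kif5c, Bfsp1, Zmpste24 and the marker genes were named after their values were seen. Alternatives changed the pseudocount, filter, scaling, prior, row choice and replicate block, or left out a library.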

Additional observations from a re-analysis of the deposited data

How the results depend on the processing

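The calls of Nefh, Prph, Nes and Lmna held under all 15 alternatives, with log2 fold changes of -0.76 to -0.59, -0.57 to -0.43, 1.22 to 1.48 and -0.87 to -0.61. The number of members called lower was 3 throughout. The sign of Vim (-0.03 to 0.08), Ina (-0.19 to 0.00) and Lmnb1 (-0.13 to 0.03) varied without a call. Members called higher numbered 1 to 2 when 1 library was left out, Lmnb2 being added without Luc replicate 2 (limma adjusted p = 0.0311) or Luc replicate 3. Other intermediate filament genes called higher numbered 1 to 3 on leaving out 1 library. With the low-value filter off, 1 was called higher and 1 lower (Bfsp1, a lens filament gene under the minimum). Cytolinker and turnover genes called lower numbered 3 to 9, lamina partners called higher 4 to 13 and lower 1 to 2, the high ends without Luc replicate 3. In the same fits the share of all genes called ran from 13.2% to 30.9% higher and from 14.3% to 22.5% lower. The cause was not tested.

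Whether replicate numbers pair the libraries was not settled. Deviations of same-numbered libraries correlated at 0.33, -0.04 and 0.16. Sfpq replicates 1 and 3 correlated best with the Luc library of the same number, but Sfpq replicate 2 with Luc replicate 3 (0.17). With a replicate block, 2 members were called higher, Lmnb2 being added (limma adjusted p = 0.0296), and 3 lower. The 4 planned ratios over Nefl could not be formed.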
